A study of Homo sapiens with 10 samples.

Results

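The 31 genes described here are those whose promoters the study had predicted to be bound by *VEGFA-LNC*, a long noncoding RNA transcribed near *VEGFA*, through RNA-DNA triplexes. All 31 were found by symbol among the 27945 symbols of the expression table, each as the transcript with the highest mean level, and they lie on 17 chromosomes. They did not come from a scan of all genes. The study ran its prediction on the promoters of its most changed genes upon *VEGFA-LNC* deletion in these same libraries. All 31 are among the 160 genes in its list of such changes, and they comprise 11 that it listed as upregulated and 20 that it listed as downregulated. Their difference between *VEGFA-LNC* deletion clones and the matching controls was therefore fixed by how they were picked, and it is given below as a description. Of the 31 genes, 26 passed the filter on low values, out of 13333 genes that did.

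In a triplex, a strand of RNA lies in the major groove of double-stranded DNA and pairs, by Hoogsteen bonds, with a stretch of DNA that is rich in purines (A or G) on a single strand. Long noncoding RNAs have been proposed to find promoters on other chromosomes in this way and to raise or lower transcription there. VEGFA and VEGFC are the growth factors that drive the growth of blood and lymphatic vessels by way of receptors on endothelial cells.

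RNA-Seq was done on total RNA, depleted of rRNA, from EA.hy926, an established line made by fusing human umbilical vein endothelial cells with the A549 lung carcinoma line. Cas9 and a pair of guide RNAs had removed the promoter of *VEGFA-LNC* in 3 clones (*VEGFA-LNC* clones) and that of *VEGFC-LNC*, a noncoding RNA near *VEGFC*, in 3 others (*VEGFC-LNC* clones), and clones chosen for study were homozygous. Each deletion had 2 control libraries of its own, from cells that had received the guides without Cas9 and had passed through the same clonal selection. The *VEGFC-LNC* clones and both sets of controls keep *VEGFA-LNC*, so that 7 of the 10 libraries carry it. The lncRNAs themselves were not analysed here, so that the deletions were not checked in these values. The labels do not say whether the 2 controls of a set were separate clones. The p-values measure the spread between libraries of a group, pooled over all 4 groups, and that between controls may be technical. In bulk RNA, fewer cells expressing a gene and less of its RNA per cell cannot be told apart.

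Because triplexes need purine stretches, the 1000 bases before the start of each gene's transcript were read from the GRCh37 (hg19) genome, the build of the table. The longest unbroken run of purines on either strand was 10 to 134 bases long among the 31 genes, with a median of 19. A run of at least 20 bases, the triplex length that the study had set, was present in 15 of the 31 genes (48.4%). It was present in 23.7% of the windows of all tested genes and in 35 of the 124 other genes of the study's lists (28.2%). A run of at least 15 bases was present in 21 of the 31 (67.7%), against 54.4% of tested genes and 46.8% of the other listed genes. When up to 2 pyrimidines were allowed in 20 bases, 30 of the 31 windows held such a stretch, as did 83.9% of the windows of all tested genes. The prediction that picked the genes reads this feature, so that these shares describe the genes and test nothing. In RefSeq promoters on GRCh38.p14 (250 bases before to 50 after the start), which were at hand for 25 of the 31 genes, 9 (36.0%) held a run of at least 15 bases and 3 (12.0%) one of at least 20. The corresponding shares of all 27305 such promoters were 19.4% and 5.84%.

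The purine strand around the longest run is shown for 8 genes on which the comparisons below turn, with the run in capitals and up to 15 flanking bases in lower case. The coordinates are on hg19 and the strand is that of the purines. A RefSeq promoter was found in the window of *CCL26*, *KSR2*, *EFR3B* and *MDGA2*. None was found in that of *ADAMTS9*, *PRSS35*, *HDAC9* and *FAM133A*, whose windows rest on the transcript used here. The stretches lie at chr3:64674039-64674104, minus strand (*ADAMTS9*), chr6:84222127-84222179, minus strand (*PRSS35*), chr7:75419453-75419572, minus strand (*CCL26*), chr12:118406368-118406492, plus strand (*KSR2*), chr2:25264352-25264395, plus strand (*EFR3B*), chr7:18548314-18548356, plus strand (*HDAC9*), chr14:47812951-47812995, minus strand (*MDGA2*), and chrX:92928973-92929011, plus strand (*FAM133A*).
ADAMTS9: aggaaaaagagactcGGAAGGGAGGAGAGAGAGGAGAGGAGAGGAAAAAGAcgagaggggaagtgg
PRSS35: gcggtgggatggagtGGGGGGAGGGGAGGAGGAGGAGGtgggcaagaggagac
CCL26: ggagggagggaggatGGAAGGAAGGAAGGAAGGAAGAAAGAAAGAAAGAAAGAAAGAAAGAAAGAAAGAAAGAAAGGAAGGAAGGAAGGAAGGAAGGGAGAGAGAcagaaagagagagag
KSR2: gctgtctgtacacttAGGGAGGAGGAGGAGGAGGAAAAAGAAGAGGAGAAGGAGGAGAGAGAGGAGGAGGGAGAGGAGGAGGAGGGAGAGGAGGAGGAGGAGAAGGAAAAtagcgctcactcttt
EFR3B: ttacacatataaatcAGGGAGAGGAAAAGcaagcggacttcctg
HDAC9: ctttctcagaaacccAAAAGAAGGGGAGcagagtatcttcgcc
MDGA2: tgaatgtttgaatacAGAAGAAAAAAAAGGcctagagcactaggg
FAM133A: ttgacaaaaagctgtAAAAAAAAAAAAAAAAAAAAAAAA

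The runs of *KSR2* (95 bases) and *CCL26* (90 bases) are made largely of short repeats, that of *ADAMTS9* (36 bases) is a mixed stretch of A and G that ends 688 bases before the gene, and that of *FAM133A* (24 bases) is a row of A that ends at the annotated start. *HDAC9*, *EFR3B* and *MDGA2* have runs of 13, 14 and 15 bases. The longest run among the 31, of 134 bases, lies before *DHRS13*. Purines were on the strand of the gene in 15 windows and on the other strand in 16.

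The libraries held between 6743971 and 24197616 reads. The levels are FPKM, reads scaled to transcript length and library size, and the differences are on a log2(FPKM + 0.1) scale, which understates changes of low genes. The targets were mostly low: 14 of the 26 tested targets (53.8%) had a mean under 1 FPKM, as did 51.0% of the other listed genes and 11.8% of all tested genes. Their median level was 0.943 FPKM, against 7.44 FPKM over all tested genes. Endothelial identity was checked with 10 markers, of which 9 passed the filter and *CLDN5* was listed at 0 in every library. Their summed level was 291 to 299 FPKM in the *VEGFA-LNC* controls, 320 to 321 FPKM in the *VEGFC-LNC* controls, 339 to 592 FPKM in the *VEGFC-LNC* clones and 170 to 745 FPKM in the *VEGFA-LNC* clones, among which clone 1 was lowest and clone 2 highest. Of 8 epithelial markers 3 passed the filter, the keratins *KRT7*, *KRT8* and *KRT18*, and the list summed to 1080 to 1090 FPKM in the *VEGFA-LNC* controls, 898 to 911 FPKM in the *VEGFC-LNC* controls, 439 to 866 FPKM in the *VEGFC-LNC* clones and 487 to 1310 FPKM in the *VEGFA-LNC* clones, with clone 1 highest and clone 2 lowest. The markers of a list did not all move together. *EMCN* was at 4.83 to 6.74 FPKM in the controls of both sets and at 0.022 to 1.54 FPKM in the clones. *KRT7* was lower in the *VEGFC-LNC* controls than in the *VEGFA-LNC* controls, while *KRT8* and *KRT18* were higher. The part of these shifts in the levels of the targets was not tested. The median SD of a target on the log2 scale was 0.47 in *VEGFA-LNC* clones and 0.50 in *VEGFC-LNC* clones, and 0.16 and 0.13 in their controls.

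**Figure D1:**
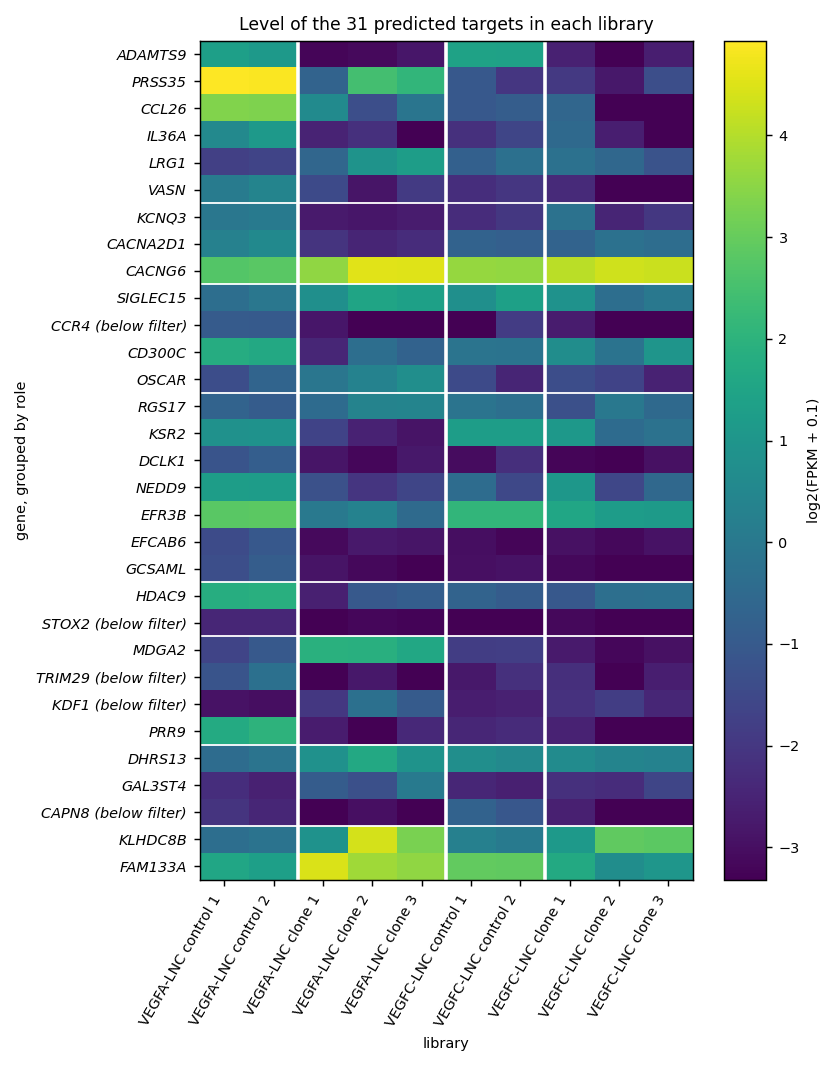
Rows are the 31 predicted targets grouped by role, columns are the 10 libraries, and the colour is the level as log2(FPKM + 0.1). The first 2 columns, the *VEGFA-LNC* controls, stand out as brighter in many rows, while *ADAMTS9* is bright in all 4 controls and dark in all 6 clones.

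The comparison whose 2 groups hold none of the libraries on which the genes were picked is that of *VEGFC-LNC* clones with their own controls. The *VEGFA-LNC* libraries enter it through the filter, the choice of transcript and the spread, which the fit estimates over all 4 groups. It asks what these genes do when another lncRNA is removed and *VEGFA-LNC* is kept. Of the 26 tested targets, 1 was downregulated and 0 were upregulated (limma, FDR under 0.05 and at least 1.5-fold). This is 3.85% of the targets, against 0.473% of all tested genes, and 5 of the 98 other listed genes (5.10%) were called as well. The gene was *ADAMTS9*, which the study also lists among its most changed genes upon *VEGFC-LNC* deletion. Before adjustment, 8 of the 26 targets (30.8%) had a p under 0.05, as did 18.8% of all tested genes and 26 of the 98 other listed genes. All 3 *VEGFC-LNC* clones were above, or all were below, both of their controls in 12 of the 26 targets (46.2%), near the background of 47.8% of all tested genes. Of the 26, 7 (*CCL26*, *IL36A*, *VASN*, *DCLK1*, *EFCAB6*, *GCSAML* and *PRR9*) had passed the filter through the 2 *VEGFA-LNC* controls alone, with few reads or none in the *VEGFC-LNC* set, and without them the count was 9 of 19. The median log2 difference was −0.29 over the targets and −0.09 over all tested genes, with 10 targets higher and 16 lower. In a fit of these 2 groups alone, *ADAMTS9* was again the target called, with an FDR of 0.0105. With each pair of controls averaged to 1 sample no target was called, and *ADAMTS9* had the same log2 difference with an FDR of 0.132.

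*ADAMTS9* encodes a secreted metalloprotease that cleaves the matrix proteoglycans aggrecan and versican. It was read from NM_182920 on chromosome 3 (64501331 to 64673365, minus strand). It was at 2.43 and 2.11 FPKM in the *VEGFA-LNC* controls, at 0.009, 0.015 and 0.04 FPKM in the *VEGFA-LNC* clones, at 2.59 and 2.54 FPKM in the *VEGFC-LNC* controls, and at 0.068, 0 and 0.061 FPKM in the *VEGFC-LNC* clones. All 4 controls thus lay between 2.11 and 2.59 FPKM and all 6 clones under 0.07 FPKM, with 0 to 11 reads in a clone and 179 to 447 reads in a control. Upon *VEGFC-LNC* deletion it fell by 4.26 on the log2 scale (SE 0.29, FDR 0.000564). Upon *VEGFA-LNC* deletion, the contrast that picked it, its log2 difference was −4.29 (SE 0.29). Between both kinds of clone the log2 difference was −0.21 (SE 0.26, FDR 0.675), and between both control sets 0.17 (SE 0.32, FDR 0.746). The long purine run shown above lies before this gene, and its part in these levels was not tested.

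**Figure D2:**
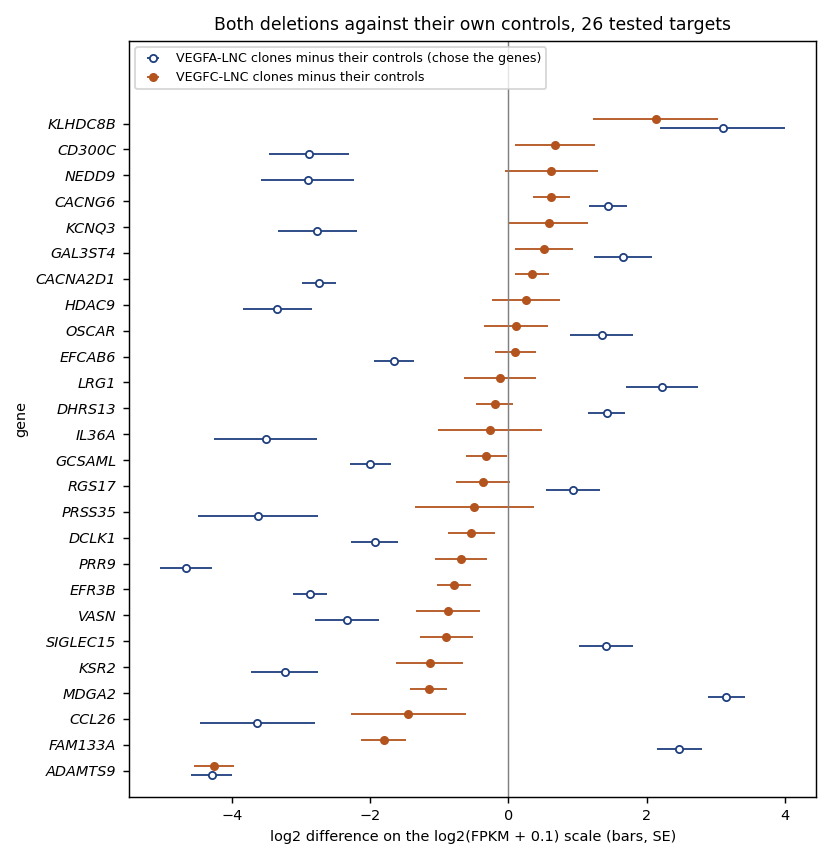
Points are the log2 differences between clones and their own controls on the log2(FPKM + 0.1) scale for the 26 tested targets, with bars for the SE, filled for the *VEGFC-LNC* deletion and open for the *VEGFA-LNC* deletion, by which the genes were picked. *ADAMTS9* lies at −4.26 and −4.29, whereas *MDGA2* and *FAM133A* lie on opposite sides of 0.

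The remaining secreted proteins were marked by the *VEGFA-LNC* controls. Of these, *CCL26*, *IL36A* and *VASN* had passed the filter through those controls alone, so that they had to be highest there. *PRSS35*, a protein of the trypsin-like serine protease family, was at 30.4 and 29.7 FPKM in the *VEGFA-LNC* controls, at 0.512, 5.41 and 4.26 FPKM in the *VEGFA-LNC* clones, at 0.38 and 0.149 FPKM in the *VEGFC-LNC* controls, and at 0.161, 0.043 and 0.297 FPKM in the *VEGFC-LNC* clones. The *VEGFA-LNC* clones were below their own controls and above all libraries of the other set. *CCL26*, or eotaxin-3, a chemokine that attracts eosinophils, was at 10.2 and 10.0 FPKM in the *VEGFA-LNC* controls, at 1.45, 0.293 and 0.827 FPKM in the clones of that set, at 0.379 and 0.446 FPKM in the *VEGFC-LNC* controls and at 0.562, 0 and 0 FPKM in the *VEGFC-LNC* clones. Only the *VEGFA-LNC* controls exceeded 1.5 FPKM. The same arrangement held at lower levels in *IL36A*, a cytokine of the interleukin-1 family, with 1.37 and 2.11 FPKM in the *VEGFA-LNC* controls and 0 to 0.606 FPKM in the other 8 libraries. *VASN*, a membrane protein that binds TGF-β, was at 0.985 and 1.22 FPKM in those controls and at 0 to 0.264 FPKM elsewhere. *LRG1*, a secreted glycoprotein that modulates TGF-β signalling in endothelial cells, ran the other way, with 0.194 and 0.224 FPKM in the *VEGFA-LNC* controls, 0.568 to 2.30 FPKM in the clones and 0.334 to 0.754 FPKM in the *VEGFC-LNC* set. None of these 5 was called upon *VEGFC-LNC* deletion.

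Of the ion channel subunits, *CACNA2D1*, an auxiliary subunit that carries voltage-gated calcium channels to the membrane, separated all 4 groups to some extent. It was at 1.14 and 1.42 FPKM in the *VEGFA-LNC* controls, at 0.134, 0.079 and 0.107 FPKM in their clones, at 0.504 and 0.461 FPKM in the *VEGFC-LNC* controls and at 0.521, 0.74 and 0.67 FPKM in the *VEGFC-LNC* clones. The *VEGFA-LNC* clones were the lowest and their controls the highest of the 10 libraries, and the *VEGFC-LNC* set lay between. *KCNQ3*, a subunit of the potassium channels behind the M current, was at 0.872 and 0.945 FPKM in the *VEGFA-LNC* controls and at 0.041 to 0.054 FPKM in the clones. It was at 0.108 and 0.151 FPKM in the *VEGFC-LNC* controls and at 0.773, 0.081 and 0.153 FPKM in the *VEGFC-LNC* clones, so that clone 1 alone came near the level of the *VEGFA-LNC* controls. The *VEGFA-LNC* clones held only 8, 8 and 10 reads of *KCNQ3*, and *VEGFC-LNC* control 1 and *VEGFC-LNC* clone 3 held 11 each. *CACNG6*, a gamma subunit of calcium channels, was at 6.48 and 6.997 FPKM in the *VEGFA-LNC* controls, at 11.8, 23.3 and 23.0 FPKM in their clones, at 12.3 and 11.9 FPKM in the *VEGFC-LNC* controls and at 16.9, 20.2 and 19.1 FPKM in the *VEGFC-LNC* clones. The level of *VEGFA-LNC* clone 1 was just below that of the *VEGFC-LNC* controls. Upon *VEGFC-LNC* deletion its log2 difference was 0.62 (SE 0.27, FDR 0.262).

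The 3 tested immune cell receptors were found at low levels, with a highest value of 3.35 FPKM in a library. *CD300C*, a receptor of myeloid cells, was at 3.35 and 3.05 FPKM in the *VEGFA-LNC* controls, at 0.085, 0.686 and 0.509 FPKM in their clones, at 0.799 and 0.784 FPKM in the *VEGFC-LNC* controls and at 1.55, 0.787 and 1.88 FPKM in the *VEGFC-LNC* clones. The *VEGFA-LNC* clones were lowest, although clone 2 lay only a little under the *VEGFC-LNC* libraries. *OSCAR*, a collagen receptor of osteoclasts, was at 0.286 and 0.528 FPKM in the *VEGFA-LNC* controls, at 0.835, 1.16 and 1.57 FPKM in their clones, and at 0.074 to 0.288 FPKM in the *VEGFC-LNC* set. Its *VEGFA-LNC* clones exceeded all other libraries. *SIGLEC15*, a sialic acid-binding receptor, was at 0.692 and 0.858 FPKM in the *VEGFA-LNC* controls, at 1.62, 2.72 and 2.46 FPKM in their clones, at 1.62 and 2.49 FPKM in the *VEGFC-LNC* controls and at 1.76, 0.687 and 0.891 FPKM in the *VEGFC-LNC* clones. The *VEGFC-LNC* controls lay within the range of the *VEGFA-LNC* clones, and neither the clones nor the controls of the *VEGFA-LNC* set stood apart. *CCR4*, the receptor of the chemokines CCL17 and CCL22, did not pass the filter, with 12 and 15 reads in the *VEGFA-LNC* controls and 0 to 7 reads elsewhere.

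Among the signalling proteins, *KSR2*, a scaffold of the Raf-MEK-ERK kinases, was lowest in the *VEGFA-LNC* clones. It was at 1.70 and 1.76 FPKM in the *VEGFA-LNC* controls, at 0.218, 0.073 and 0.034 FPKM in their clones, at 2.33 and 2.30 FPKM in the *VEGFC-LNC* controls and at 2.01, 0.631 and 0.759 FPKM in the *VEGFC-LNC* clones. The control sets differed by 0.40 on the log2 scale (SE 0.53, FDR 0.648). This SE holds the spread of the clones, which was wider than that of the controls. The control sets did not overlap, which was so in 82.9% of all tested genes. *VEGFC-LNC* clones 2 and 3 were between the controls and the *VEGFA-LNC* clones. The log2 difference upon *VEGFC-LNC* deletion was −1.14 (SE 0.49, FDR 0.257). *EFR3B*, which anchors a phosphatidylinositol 4-kinase at the plasma membrane, was at 6.96 and 7.11 FPKM in the *VEGFA-LNC* controls, at 0.915, 1.17 and 0.628 FPKM in their clones, at 4.20 and 4.26 FPKM in the *VEGFC-LNC* controls and at 2.89, 2.24 and 2.18 FPKM in the *VEGFC-LNC* clones. Clones were below their own controls in both sets, with no overlap, but the log2 difference upon *VEGFC-LNC* deletion was −0.78 (SE 0.24, FDR 0.163). *NEDD9*, a scaffold of focal adhesions, was at 2.33 and 2.28 FPKM in the *VEGFA-LNC* controls, at 0.312, 0.144 and 0.229 FPKM in their clones, at 0.652 and 0.246 FPKM in the *VEGFC-LNC* controls and at 1.97, 0.239 and 0.59 FPKM in the *VEGFC-LNC* clones. *VEGFC-LNC* clone 1 again lay near the *VEGFA-LNC* controls, as for *KCNQ3*.

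*DCLK1*, a kinase that binds microtubules, *EFCAB6*, a protein with EF hands, and *GCSAML* were each at 0.266 to 0.45 FPKM in the *VEGFA-LNC* controls and at no more than 0.117 FPKM in any other library. They had passed the filter through the *VEGFA-LNC* controls alone. *RGS17*, which speeds the shut-off of G proteins, was at 0.512 and 0.425 FPKM in the *VEGFA-LNC* controls, at 0.645 to 1.22 FPKM in their clones and at 0.306 to 0.89 FPKM in the *VEGFC-LNC* set. Both *VEGFA-LNC* groups thus overlapped with the *VEGFC-LNC* set, though not with each other.

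*HDAC9*, a class IIa histone deacetylase, was at 3.43 and 3.61 FPKM in the *VEGFA-LNC* controls, at 0.066, 0.398 and 0.45 FPKM in their clones, at 0.515 and 0.434 FPKM in the *VEGFC-LNC* controls and at 0.382, 0.701 and 0.725 FPKM in the *VEGFC-LNC* clones. All 8 libraries other than the *VEGFA-LNC* controls were below 0.73 FPKM, and *VEGFA-LNC* clones 2 and 3 lay within the range of the libraries that keep *VEGFA-LNC*. *STOX2*, a storkhead-box protein, had 15 and 20 reads in the *VEGFA-LNC* controls and 0 to 3 reads in the other 8 libraries.

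Of the adhesion and epithelial genes, *MDGA2*, a membrane-anchored protein that binds neuroligins, was highest in the *VEGFA-LNC* clones. It was at 0.22 and 0.389 FPKM in the *VEGFA-LNC* controls, at 3.71, 3.597 and 2.99 FPKM in their clones, at 0.181 and 0.19 FPKM in the *VEGFC-LNC* controls and at 0.051, 0.01 and 0.028 FPKM in the *VEGFC-LNC* clones. The 3 *VEGFA-LNC* clones were close together and the other 7 libraries did not exceed 0.389 FPKM. Upon *VEGFC-LNC* deletion its log2 difference had the other sign, at −1.15 (SE 0.27, FDR 0.0985). *PRR9*, a proline-rich protein of the epidermis, was at 3.24 and 3.91 FPKM in the *VEGFA-LNC* controls, and at 0 to 0.101 FPKM in all other libraries of both sets. It had passed the filter through those controls alone. *TRIM29* had 14 and 39 reads in the *VEGFA-LNC* controls and 0 to 7 elsewhere, and *KDF1*, a regulator of keratinocyte differentiation, had 1 read in each *VEGFA-LNC* control, 4 to 24 in their clones and 1 to 6 in the *VEGFC-LNC* set; neither passed the filter.

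Of the enzymes, *DHRS13*, a short-chain dehydrogenase, was at 0.661 and 0.81 FPKM in the *VEGFA-LNC* controls, at 1.72, 3.09 and 1.80 FPKM in their clones, at 1.60 and 1.38 FPKM in the *VEGFC-LNC* controls and at 1.49, 1.22 and 1.16 FPKM in the *VEGFC-LNC* clones. The lowest *VEGFA-LNC* clone was only slightly above the highest *VEGFC-LNC* control. *GAL3ST4*, a sulfotransferase that acts on galactose, was at 0.113 and 0.07 FPKM in the *VEGFA-LNC* controls, at 0.425, 0.3 and 0.931 FPKM in their clones and at 0.065 to 0.234 FPKM in the *VEGFC-LNC* set. It had passed the filter through *VEGFA-LNC* clones 1 and 3 alone. *CAPN8*, a calpain protease of the stomach, had 5 and 4 reads in the *VEGFA-LNC* controls, 0 or 1 in their clones, 10 and 19 in the *VEGFC-LNC* controls and 0 to 3 in the *VEGFC-LNC* clones. *CAPN8*, like *ADAMTS9*, stands in both of the study's lists, and with no filter on low values it was the second target called upon *VEGFC-LNC* deletion.

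*FAM133A*, whose role is little known, differed in opposite directions between the clones and controls of the 2 sets. It was at 2.88 and 2.44 FPKM in the *VEGFA-LNC* controls, at 21.98, 13.5 and 11.8 FPKM in their clones, at 7.66 and 7.45 FPKM in the *VEGFC-LNC* controls and at 3.13, 1.55 and 1.90 FPKM in the *VEGFC-LNC* clones. Its log2 difference upon *VEGFC-LNC* deletion was −1.80 (SE 0.33, FDR 0.058), which did not pass the threshold. Its paralog *FAM133B* is a similar gene on another chromosome, and how reads matching both were assigned is not stated, so that these values are uncertain. *KLHDC8B*, a kelch-repeat protein of dividing cells, was at 0.698 and 0.784 FPKM in the *VEGFA-LNC* controls, at 1.77, 20.8 and 9.45 FPKM in their clones, at 1.12 and 0.941 FPKM in the *VEGFC-LNC* controls and at 2.10, 7.50 and 7.13 FPKM in the *VEGFC-LNC* clones. It was higher in all 6 clones than in all 4 controls, but clone 1 of either set was well under clones 2 and 3, and the log2 difference upon *VEGFC-LNC* deletion was 2.13 (SE 0.90, FDR 0.254). When *VEGFA-LNC* clone 1 was left out of the fit, *FAM133A*, *MDGA2*, *KLHDC8B* and *CACNG6* joined *ADAMTS9* among the targets called upon *VEGFC-LNC* deletion, 5 in all, with FDRs of 0.0107, 0.0369, 0.0423 and 0.0184 for these 4. The number called among all genes rose from 63 to 1158 in that fit. Leaving out *VEGFC-LNC* clone 1 gave 2 targets, *ADAMTS9* and *FAM133A* (FDR 0.0309).

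**Figure D3:**
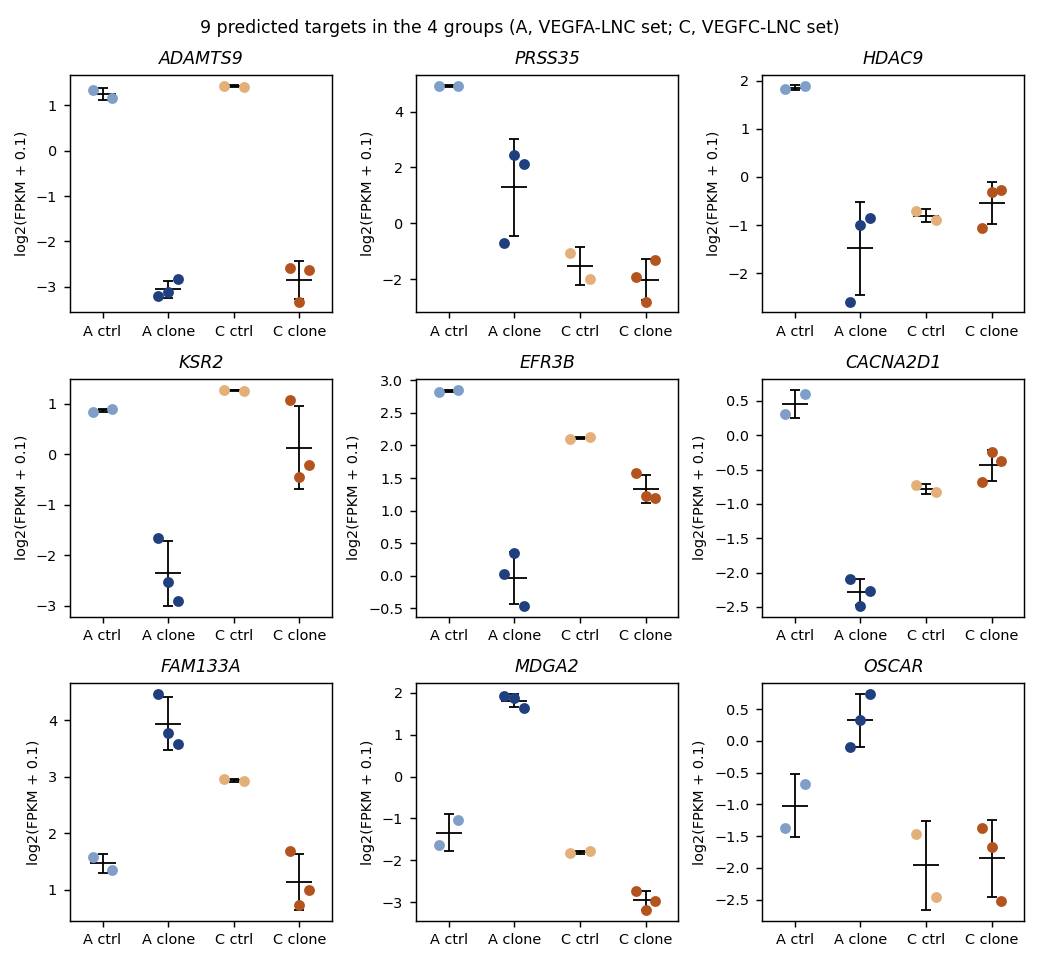
Each panel shows log2(FPKM + 0.1) of 1 predicted target in the 10 libraries, by group (A, *VEGFA-LNC* set, C, *VEGFC-LNC* set), with a line for the mean and bars for the SD over 2 controls or 3 clones. The panels show *ADAMTS9* low in all 6 clones, *PRSS35* and *HDAC9* high in the *VEGFA-LNC* controls, *KSR2*, *EFR3B* and *CACNA2D1* lowest in the *VEGFA-LNC* clones, and *FAM133A*, *MDGA2* and *OSCAR* highest there.

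As to the contrast that picked the genes, 17 of the 26 tested targets were called between *VEGFA-LNC* clones and their own controls, 4 higher and 13 lower. The background was 2.75% of all tested genes, and 58 of the 98 other listed genes (59.2%) were called likewise. Clones and controls did not overlap in any of the 26 targets, nor in 97 of the 98 other listed genes, nor in 39.0% of all tested genes, and for the targets this goes with how they were picked. Such a difference can arise from clones that depart from the other libraries or from controls that do, and the libraries of the *VEGFC-LNC* set, in which *VEGFA-LNC* is intact, allow the positions to be described.

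The 3 *VEGFA-LNC* clones lay beyond all 7 other libraries, above or below, in 10 of the 26 targets (38.5%). This was the case in 6.05% of all tested genes and in 32 of the 98 other listed genes (32.7%). The 2 *VEGFA-LNC* controls lay beyond all 8 other libraries in 18 of the 26 targets (69.2%), in 22.0% of all tested genes and in 51 of the other listed genes (52.0%). The filter bears on this count, since the 7 targets that passed through the *VEGFA-LNC* controls alone had to be highest there, and without such genes it was 11 of 19 targets, 34 of 81 other listed genes and 21.6% of all tested genes. In *KSR2*, *MDGA2*, *FAM133A*, *OSCAR* and *GAL3ST4* the clones alone stood apart. *GAL3ST4* had passed the filter through *VEGFA-LNC* clones 1 and 3 alone, so that the filter bears on the counts of clones as well. In *EFR3B*, *CACNA2D1*, *KCNQ3*, *CD300C* and *DHRS13* the clones stood apart at one end and the controls at the other. In 13 targets the controls alone stood apart, *PRSS35*, *CCL26*, *PRR9*, *HDAC9* and *NEDD9* among them. In *ADAMTS9*, *SIGLEC15* and *RGS17* neither did. Controls alone stood apart in 50.0% of the targets, 49.0% of the other listed genes and 21.5% of all tested genes. Clones alone did so in 19.2%, 29.6% and 5.48%, both in 19.2%, 3.06% and 0.57%, and neither in 11.5%, 18.4% and 72.5%. The 7 targets that passed through the *VEGFA-LNC* controls alone were all among the 13 with only the controls apart, so that the filter bears on this share too. Without *VEGFA-LNC* clone 1 the clones lay beyond all others in 15 targets. Fewer clones make this condition easier to meet for any gene, and the share over all tested genes was not counted in that setting.

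**Figure D4:**
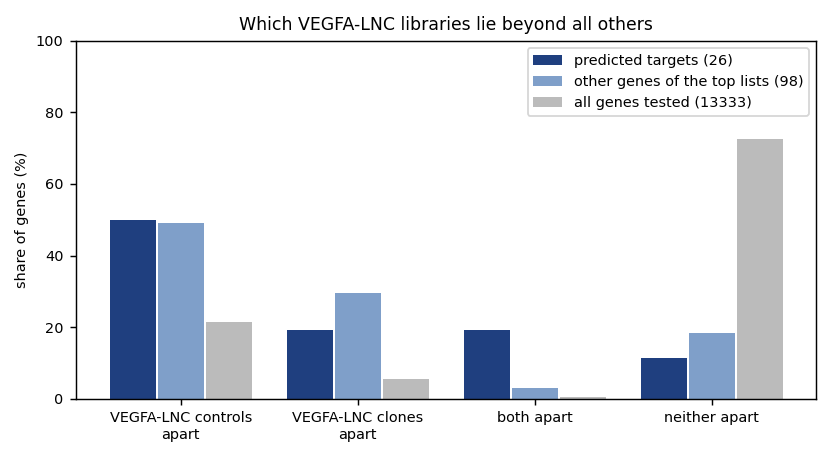
Bars give the share of genes (%) in which the 2 *VEGFA-LNC* controls, the 3 *VEGFA-LNC* clones, both or neither lie beyond all other libraries, for the 26 tested targets, the 98 other tested genes of the study's lists and all 13333 tested genes. Controls alone stand apart in 13 of the 26 targets, in 49.0% of the other listed genes and in 21.5% of all tested genes. Of these 13 targets, 7 passed the filter through the *VEGFA-LNC* controls alone.

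By their mean on the log2 scale, the *VEGFC-LNC* controls were nearer to the *VEGFA-LNC* clones than to the *VEGFA-LNC* controls in 18 of the 26 targets (69.2%), and in 48 of the 98 other listed genes (49.0%). The *VEGFC-LNC* clones were nearer to the *VEGFA-LNC* clones in 16 targets (61.5%) and in 54 of the other listed genes (55.1%). Both groups of the *VEGFC-LNC* set were nearer to the *VEGFA-LNC* clones in 13 targets, and neither was in 5. The 7 targets that passed the filter through the *VEGFA-LNC* controls alone were all among the 18, the 16 and the 13. The filter thus bears on these counts as well, and the share over all tested genes was not counted.

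A difference in faint reads ran in the same direction. Of the 14612 symbols that did not pass the filter, 41.7% and 44.9% had at least 1 read in the *VEGFA-LNC* controls, 22.7 to 36.5% in the *VEGFA-LNC* clones and 15.1 to 28.0% in the 5 libraries of the *VEGFC-LNC* set. The depth of the *VEGFA-LNC* controls, 17388355 and 22578534 reads, was within that of the other libraries. The fibroblast markers, of which 2 of 5 passed the filter, summed to 0.656 to 0.699 FPKM in the *VEGFA-LNC* controls and to 0.019 to 0.284 FPKM in the other 8 libraries. The part of these faint reads in the levels of low targets such as *STOX2*, *EFCAB6* and *GCSAML* was not tested.

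The controls of the 2 sets, neither of which carries a deletion, differed in many of the targets. Between *VEGFC-LNC* controls and *VEGFA-LNC* controls 10 of the 26 targets (38.5%) were called, 1 higher and 9 lower. Of the 9, 6 had passed the filter through the *VEGFA-LNC* controls alone, which leaves 4 of 19 targets, 1 higher and 3 lower. The background was 12.7% of all tested genes, and 36 of the 98 other listed genes (36.7%) were called. *PRSS35* had the largest log2 difference, −6.45 (SE 0.95, FDR 0.00677), followed by *CCL26* at −4.32 (SE 0.91, FDR 0.0208) and *PRR9* at −4.24 (SE 0.41, FDR 0.00228). *HDAC9*, *VASN*, *EFCAB6*, *GCSAML*, *DCLK1* and *CACNA2D1* were the other 6 that were lower in the *VEGFC-LNC* controls, and *FAM133A* was higher, by 1.48 (SE 0.36, FDR 0.0314). The median log2 difference was −1.09 over the targets and −0.11 over all tested genes. This comparison shares the *VEGFA-LNC* controls with the one that picked the genes, so that the counts describe the libraries and support nothing on the deletion. The sets also differ in the guides they received, and anything else that differed between them cannot be told apart from the set.

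Set against the *VEGFC-LNC* controls, the *VEGFA-LNC* clones differed in 7 of the 26 targets (26.9%), with a background of 6.45% of all tested genes and 35 of the 98 other listed genes (35.7%). *MDGA2* (log2 difference 3.62, SE 0.27, FDR 0.00137), *OSCAR* (2.29, SE 0.46, FDR 0.0284) and *GAL3ST4* (1.79, SE 0.42, FDR 0.0421) were higher in the clones. *ADAMTS9* (−4.47, SE 0.29, FDR 0.0013), *KSR2* (−3.63, SE 0.49, FDR 0.0129), *EFR3B* (−2.14, SE 0.24, FDR 0.00706) and *CACNA2D1* (−1.50, SE 0.24, FDR 0.0183) were lower. The 7 had the direction that the study lists for them. Among them, *GAL3ST4* had passed the filter through 2 *VEGFA-LNC* clones alone. *HDAC9*, at −0.68 (SE 0.50, FDR 0.389), and *PRR9*, at −0.42 (SE 0.37, FDR 0.485), were not called, and *PRSS35* had a difference of the other sign, 2.82 (SE 0.86, FDR 0.0807). The median was 0.09 over the targets and 0.05 over all tested genes. When the fit held these 2 groups alone, or averaged each control pair, no target was called and 0 of all tested genes were.

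Set against the *VEGFC-LNC* clones, which went through the same editing with Cas9 and keep *VEGFA-LNC*, the *VEGFA-LNC* clones differed in 7 targets (26.9%), with a background of 7.46% and 34 of the 98 other listed genes (34.7%). *MDGA2* was 4.77 higher on the log2 scale (SE 0.24, FDR 0.000125), *FAM133A* 2.80 higher (SE 0.29, FDR 0.00217), *OSCAR* 2.18 higher (SE 0.41, FDR 0.0172) and *PRSS35*, which the study lists as downregulated, 3.32 higher (SE 0.77, FDR 0.0339). *KSR2* had a log2 difference of −2.50 (SE 0.44, FDR 0.0137), *CACNA2D1* of −1.84 (SE 0.22, FDR 0.00458) and *EFR3B* of −1.36 (SE 0.22, FDR 0.0113). The clones with the same replicate number deviated together. With that number as a block 8 targets were called, *GAL3ST4* being added, and 972 of all 13333 tested genes were. With the fit confined to the 2 groups of clones, *MDGA2* and *FAM133A* were the 2 targets called. The median log2 difference was 0.24 over the targets and 0.14 over all tested genes. Both of these comparisons share the *VEGFA-LNC* clones with the contrast that picked the genes, so that *MDGA2*, *OSCAR*, *KSR2*, *EFR3B* and *CACNA2D1*, which were called in both, are described and not tested anew.

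Close relatives of the targets offered a group not taken from the study's lists. Of 46 paralogs, 21 passed the filter. Upon *VEGFC-LNC* deletion 0 of the 21 were called by limma, against 0.473% of all tested genes, and 5 (23.8%) had an unadjusted p under 0.05, against 18.8%. Between *VEGFA-LNC* clones and their own controls 1 was called (4.76%, against 2.75% of all tested genes), *FAM133B*, which averaged 2.55 ± 0.356 FPKM (SD, n = 3) over the clones and 7.01 ± 1.06 FPKM (SD, n = 2) over the controls. It fell by 1.42 on the log2 scale (SE 0.19, FDR 0.0116), whereas *FAM133A* was higher in the same clones. *FAM133B* was also lower in the *VEGFA-LNC* clones than in the *VEGFC-LNC* controls (log2 difference −1.16, SE 0.19, FDR 0.0189) and clones (−0.83, SE 0.17, FDR 0.0238). *RGS20*, a relative of *RGS17*, was lower in the *VEGFC-LNC* controls than in the *VEGFA-LNC* controls, by −1.23 (SE 0.20, FDR 0.0096), and higher in the *VEGFA-LNC* clones than in the *VEGFC-LNC* controls, by 1.11 (SE 0.18, FDR 0.0189). *CACNG8*, whose gene lies beside *CACNG6*, was higher in the *VEGFC-LNC* controls than in the *VEGFA-LNC* controls, by 1.30 (SE 0.36, FDR 0.0483). Between *VEGFA-LNC* clones and their own controls, the 20 tested paralogs other than *FAM133B* were not called. Their log2 differences in that contrast ranged from −1.21 (*ADAMTS1*, SE 0.55) to 1.66 (*CACNA2D4*, SE 0.69).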

How the data were processed

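RNA-Seq of 10 EA.hy926 libraries (stranded total RNA, single-end reads) was analysed. The values are FPKM per RefSeq transcript on hg19, deposited by the authors as a single table in the layout that HOMER writes; per the submitters' processing notes, Trim Galore 0.4.4, STAR 2.5.4b and featureCounts were used, and how the FPKM table was made is not given in the sources used here. Groups and replicate numbers came from the labels. FPKM multiplied by length gave whole reads for 100% of the values checked (tolerance 0.1 reads), which gave the depth; reads without molecular identifiers show counting error only.

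The row with the highest mean FPKM per symbol was used, and genes with FPKM × kilobases of at least 1 in at least 2 libraries were tested. Values as log2(FPKM + 0.1) were fitted in R 4.3.3 with limma 3.58.1 (lmFit, eBayes with trend) as 4 groups in 1 fit, with Benjamini-Hochberg FDRs over all 13333 genes, and the procedure was tested on simulated data. A call needed an FDR below 0.05 together with a difference of 1.5-fold or more. Summaries were made in Python 3.11.15.

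Members, gene lists and tests were chosen with earlier results of these data known. All 31 targets may be named. Values in every library were given for those called upon *VEGFC-LNC* deletion, for the 3 with the highest mean per role group, and for those with the largest differences. Of the paralogs, those called were named by rule, and *ADAMTS1* and *CACNA2D4*, the ends of a range, after their values were seen.

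Control pairs differed by more than sampling noise (chi-square per degree of freedom 3.76 and 1.54), but by far less than pairs of clones (18.3 to 138). The control pairs were kept as separate samples, and whether they were technical replicates was not tested. Replicate numbers paired the samples only between *VEGFA-LNC* and *VEGFC-LNC* clones, where the correlations of deviations were 0.553, 0.409 and 0.219; the numbers are the only source of this pairing. Between clones and their own controls they were −0.043 to 0.047. Alternatives were another pseudocount, no filter, other scaling, voom on recovered reads, fits of fewer groups, a replicate block, averaged control pairs, each library left out, and, chosen after seeing the data, the longest transcript per symbol and counts without targets that passed the filter through the *VEGFA-LNC* controls alone. Purine windows were read from the GRCh37 genome with the transcript starts of the table. RefSeq promoters were at hand for 25 of the 31 targets, and 13 of these promoters were found in the window. This window was also chosen after seeing the data. The result of a list of blood cell markers is not reported here.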

Additional observations from a re-analysis of the deposited data

How the results depend on the processing

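The number of targets called depended on the controls and on the fit. Upon *VEGFC-LNC* deletion, 1 target was called as reported, 2 with no filter on low values, 0 with control pairs averaged, and 1 to 5 when single libraries were left out (5 without *VEGFA-LNC* clone 1 and 2 without *VEGFC-LNC* clone 1). *ADAMTS9* was called in all alternatives but that of averaged pairs, with log2 differences of −6.72 to −1.77 and FDRs of 7.38e-05 to 0.132 over 18 alternatives. In the contrast that picked the genes, 17 targets were called as reported, 4 with only the groups compared, 0 with control pairs averaged, and 2 to 24 when single libraries were left out; 24 were called without *VEGFA-LNC* clone 1, 10 and 8 without clones 2 and 3, 5 and 2 without their controls 1 and 2, and 10 without either *VEGFC-LNC* control. The replicate block gave 8 targets in that contrast, where the samples share only a number, and 20 in place of 63 genes upon *VEGFC-LNC* deletion. Against the *VEGFC-LNC* controls, 7 targets became 0 with only the groups compared, 0 with pairs averaged, and 2 to 11 when single libraries were left out (11 without *VEGFA-LNC* clone 1, 4 without clone 3 or either *VEGFA-LNC* control, 2 without either *VEGFC-LNC* control). Against the *VEGFC-LNC* clones, 7 became 2 with only the groups compared, 2 with pairs averaged, and 4 to 9 when single libraries were left out (4 without *VEGFA-LNC* clone 3). Between control sets, 10 became 19 with only the groups compared, 0 with pairs averaged, and 1 to 17 when single libraries were left out (17 without *VEGFA-LNC* clone 1, 1 without any single control). Clones beyond all 7 other libraries numbered 10 to 15 and controls beyond all 8 numbered 18 to 19 when single libraries were left out, and 10 and 17 with the longest transcript. For these settings the shares over all tested genes were not counted. Averaging leaves fewer samples, and the causes of the other changes were not tested.

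Among all tested genes, the 367 called between *VEGFA-LNC* clones and their controls became 654 with no filter, 551 with voom, 20 with only the groups compared, 151 with the replicate block, 0 with pairs averaged and 6 to 1732 with single libraries left out. The 63 upon *VEGFC-LNC* deletion became 26 with only the groups compared, 1 with pairs averaged and 5 to 1158 with single libraries left out. The 860 against the *VEGFC-LNC* controls became 524 with no filter, 402 with the replicate block and 5 to 3708 with single libraries left out, and the 994 against the *VEGFC-LNC* clones became 46, 45 and 415 to 1982 with only the groups compared, pairs averaged and single libraries left out. The 1690 between control sets became 4401, 0 and 33 to 3068 in the same order.

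Upon *VEGFC-LNC* deletion, log2 differences of uncalled targets changed sign in *IL36A* (−0.27 as reported, 0.0235 with pseudocount 1, 0.19 with the replicate block, 0.32 without *VEGFC-LNC* clone 3 and 0.038 without control 2, and −1.09 to 0.32 with single libraries left out), *LRG1* (−0.12 as reported, −0.38 to 0.15 with single libraries left out), *KCNQ3* (0.58 as reported, −0.095 without clone 1, up to 1.04 with single libraries left out), *NEDD9* (0.62 as reported, −0.077 without clone 1, up to 1.23 with single libraries left out) and *OSCAR* (0.11 as reported, −0.13 without clone 1, −0.39 without control 2, up to 0.61 with single libraries left out). Depth limits the low targets, since 0 reads in the smallest library allow up to 3.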
